A study of Mus musculus with 20 samples.

Results

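Centrocytes and centroblasts that carried the Myd88 L252P allele were compared across all measured genes, using the 10 mutant libraries of a series of 20 bulk RNA-seq libraries from mouse germinal centre B cells. The libraries were chosen by their titles: 5 are labelled centrocyte and Myd88 L252P, and 5 are labelled centroblast and Myd88 L252P. Mutant cells were heterozygous for Myd88L252P, and the 5 centroblast and 5 centrocyte control libraries were wild type for it. All 4 groups also carried 1 copy of Cgamma1Cre, a Cre recombinase driven from the immunoglobulin C gamma 1 locus, which becomes active in B cells responding to antigen. Both gates took B220+ FAS+ GL7+ cells; the centroblast gate was CXCR4+ CD86-, and the centrocyte gate CXCR4- CD86+. The labels give neither the age nor the sex of the mice, nor do they say that replicates came from separate animals, so p-values measure the spread between these samples, which may be technical. In bulk RNA, fewer cells of a type and less RNA per cell cannot be told apart.

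The germinal centre is the structure in which activated B cells mutate their antibody genes and are selected. In its dark zone, centroblasts divide rapidly and acquire these mutations; in its light zone, centrocytes test their B cell receptor on antigen held by follicular dendritic cells and receive help from T cells through CD40. MYD88 is an adaptor protein that couples Toll-like receptors and the IL-1 receptor family to NF-kB, and L252P is the mouse counterpart of an activating substitution that is frequent in human B cell lymphoma.

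B cell genes were high in all 10 mutant libraries, but the libraries differed in composition. Cd79a, a chain of the B cell receptor, stood between 1715 and 2248 TPM (a share of all transcripts in a library, corrected for transcript length) and Cd79b, its partner chain, between 2466 and 4638 TPM in the 10 mutant libraries. The gate genes followed the sort, which is no finding: Cxcr4 stood at 507, 443, 475, 323 and 234 TPM in centroblasts and 179, 179.9, 157, 174 and 147 TPM in centrocytes, and Cd86 at 99.7, 85.2, 102, 119 and 129 TPM in centroblasts and 250.0, 188, 212, 298 and 308 TPM in centrocytes. Centroblast mutants 4 and 5 differed from the other 18 libraries: cytosolic ribosomal protein genes made up 12.4% and 16.9% of their summed TPM, against 7.31% to 9.92% elsewhere, and transcripts of 732.5 bases or less made up 33.8% and 38.5%, against 26.9% to 30.5%. They also listed fewer genes above 0, with 12895 and 12719 against 13053 to 14092. Because TPM sum to a fixed total, counts and medians are also given after median-of-ratios scaling, which divides each library by its typical ratio to all libraries over 11359 genes. The size factors of centroblast mutants 4 and 5 were 0.793 and 0.646, and those of the other 18 libraries ran from 0.941 to 1.18. How these libraries came to differ was not tested.

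**Figure D1:**
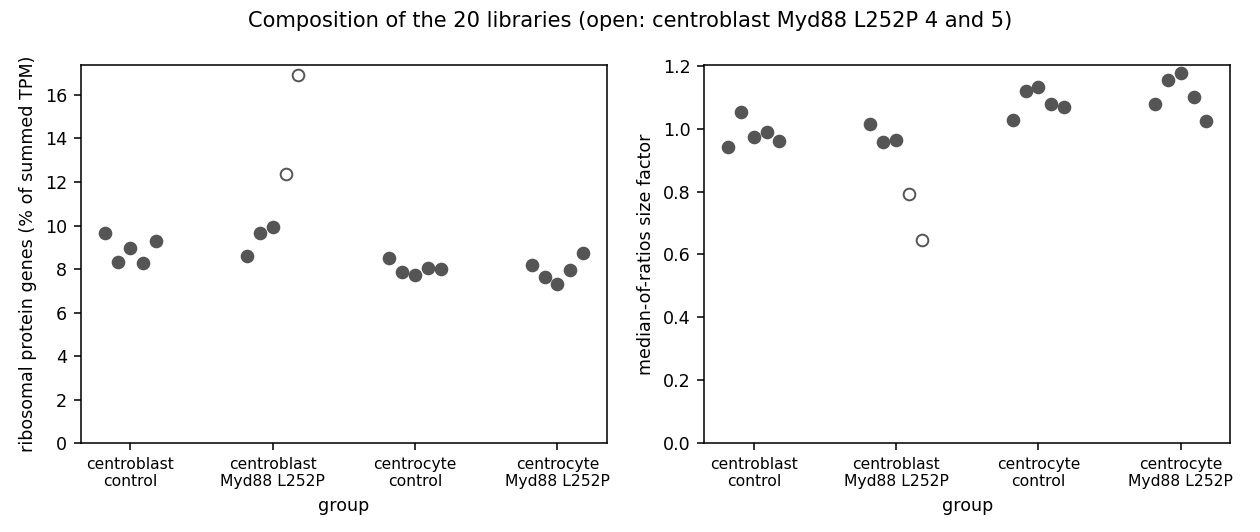
Each point is 1 of the 20 libraries, by group; the left panel gives the share of summed TPM (percent) from cytosolic ribosomal protein genes and the right panel the median-of-ratios size factor. The open points, centroblast mutants 4 and 5, lie above all other libraries on the left (12.4% and 16.9%) and below them on the right (0.793 and 0.646).

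Many genes differed between the zones of mutant mice, in both directions. Of 11386 genes tested with limma on log2(TPM + 1), 5561 (48.8%) were higher and 1436 (12.6%) lower in mutant centrocytes than in mutant centroblasts on the deposited scale, at a Benjamini-Hochberg adjusted p under 0.05. With median-of-ratios scaling 3376 (29.7%) were higher and 3281 (28.8%) lower, so the excess of rises on the deposited scale moved with the scale. No gene was called in opposite directions, and 3376 (29.7%) rose and 1436 (12.6%) fell on both scales. The rises were all those of the median-of-ratios scale, and the falls all those of the deposited scale. Genes called lower with median-of-ratios scaling alone are thus not among the falls. Counts of list members below are to be read beside 29.7% and 12.6%. Below, "rose" and "fell" mean called on both scales unless a scale is named. Of these, 617 genes rose and 168 fell by at least 1 log2 unit on both scales. On the deposited scale, every centrocyte was above every centroblast for 3264 of the 11386 genes, and below for 901. Among those genes without overlap, 2580 also rose and 893 also fell on both scales. The median log2 fold change of all genes tested was 0.34 on the deposited scale and 0.02 with median-of-ratios scaling. Without centroblasts 4 and 5, median-of-ratios scaling called 2813 genes higher and 2788 lower, and 2543 of the 3376 rises and 1404 of the 1436 falls were called again in the same direction. The added 1 TPM makes the fold changes of low genes too small.

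The largest rises in mutant centrocytes included a migration receptor, a D cyclin, a Toll-like receptor and genes known from memory B cells. Ccr6, the receptor for the chemokine CCL20 and a mark of memory precursors, stood at 5.54, 2.12, 4.59, 2.30 and 2.06 TPM in centroblasts and 128, 119.6, 129, 94.3 and 99.7 TPM in centrocytes. Every centrocyte library was above every centroblast library, and the mean was 34.4 times as high. The log2 fold change was 4.80 ± 0.24 (SE, adjusted p = 5.69e-12), 4.50 with median-of-ratios scaling and 4.40 with that scaling and without centroblasts 4 and 5.

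Ccnd2, which encodes cyclin D2, a driver of entry into the cell cycle, was next, at 6.38, 6.08, 7.12, 2.01 and 1.0 TPM in centroblasts and 44.6, 66.7, 74.6, 40.5 and 44.4 TPM in centrocytes. Centroblasts 4 and 5 gave the lowest of these values, and the groups did not overlap. Its log2 fold change was 3.48 ± 0.32 (adjusted p = 2.28e-08), and it was 2.67 with median-of-ratios scaling and without these libraries. Ccnd3, the cyclin D3 gene that centroblasts use for repeated division, went the other way. It stood at 360.3, 319.5, 282, 369 and 383 TPM in centroblasts and 203, 234, 237, 262 and 244 TPM in centrocytes, with no overlap, and its log2 fold change was -0.53 ± 0.11 (adjusted p = 2.54e-04).

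Tlr7, the endosomal sensor of single-stranded RNA that signals through MYD88, stood at 2.90, 2.23, 2.30, 0.443 and 1.44 TPM in centroblasts and 27.7, 31.8, 31.1, 13.2 and 24.2 TPM in centrocytes. Centrocyte 4 was the lowest centrocyte and was still above every centroblast, and the log2 fold change was 3.23 ± 0.26 (adjusted p = 5.17e-09). Others among the 12 largest rises were Fcrl5, an Fc receptor-like protein of the B cell surface (log2 fold change 3.46), Pcp4, a calmodulin-binding peptide (3.21), Bhlhe41, a transcriptional repressor used by B-1 cells (3.15), Tmem154 (3.14), Pml, the scaffold of nuclear bodies (3.08), Hhex, a transcription factor required for memory B cells (3.06), Gpr34, a receptor for lysophosphatidylserine (3.03), and St8sia6, a sialyltransferase (2.88). All 12, and the 12 falls below, were chosen by size among genes whose groups did not overlap. Numbered gene models, such as Rik symbols, and some other gene classes were left out of both rankings. With median-of-ratios scaling and without centroblasts 4 and 5, their log2 fold changes ran from 2.30 (St8sia6) to 4.40 (Ccr6).

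**Figure D2:**
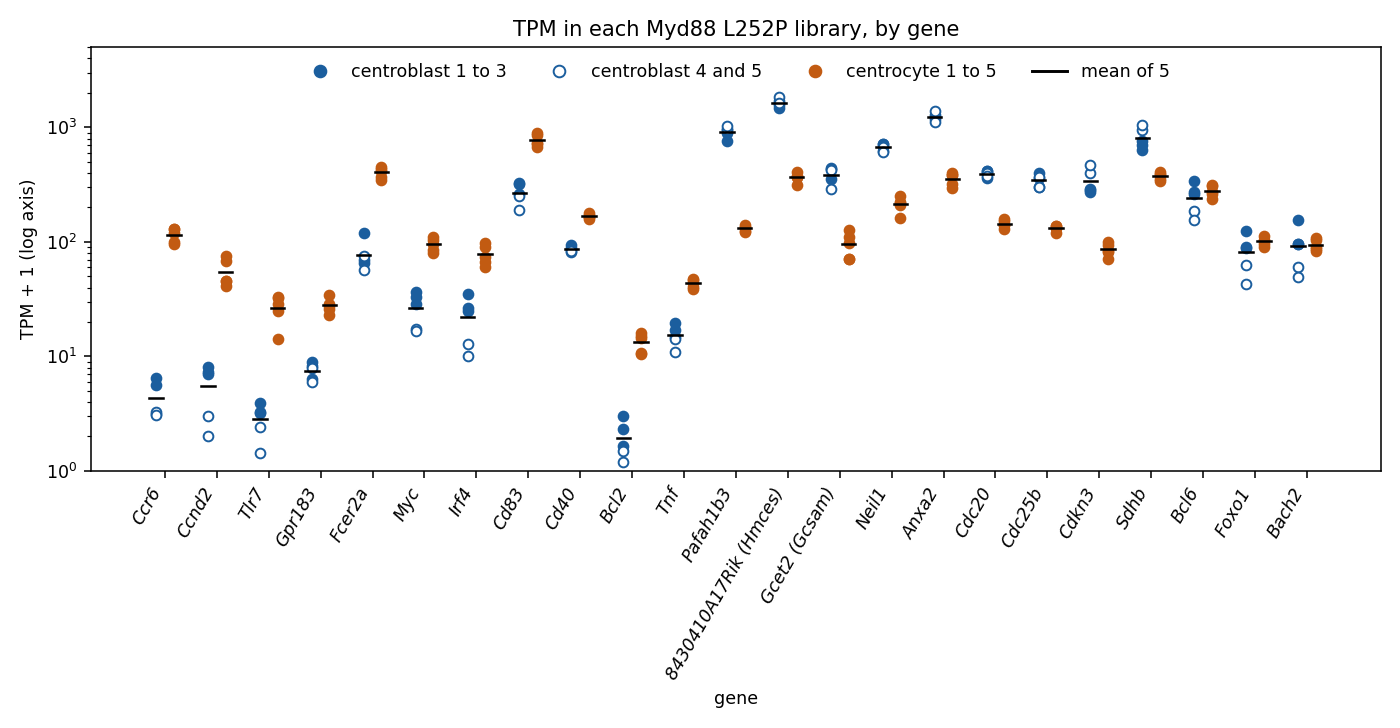
TPM + 1 (log axis) of 23 genes in each of the 5 centroblast and 5 centrocyte Myd88 L252P libraries, with the mean as a bar; open points are centroblasts 4 and 5. Genes from Ccr6 to Tnf rose, those from Pafah1b3 to Sdhb fell, and the groups of Bcl6, Foxo1 and Bach2 overlapped.

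The largest falls included genes of lipid signalling, cell movement and the cell cycle. Pafah1b3, a catalytic subunit of an acetylhydrolase of platelet-activating factor, stood at 762, 939.5, 886, 963 and 1026 TPM in centroblasts and 125, 132, 139, 135 and 120.3 TPM in centrocytes. The mean was 7.03 times as high in centroblasts, the groups lay far apart, and the log2 fold change was -2.80 ± 0.09 (adjusted p = 9.48e-16). Anxa2, which encodes annexin A2, a calcium-dependent membrane-binding protein, stood at 1275, 1227, 1174, 1394 and 1124 TPM in centroblasts and 398, 298, 320.0, 384 and 385 TPM in centrocytes. Every centrocyte was below every centroblast, with a log2 fold change of -1.80 ± 0.16 (adjusted p = 1.78e-08).

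Gcet2 (now Gcsam), a germinal centre adaptor known to restrain motility, stood at 438, 432, 353, 419.6 and 286 TPM in centroblasts and 125, 109, 69.9, 97.3 and 70.6 TPM in centrocytes. Its log2 fold change was -2.04 ± 0.16 (adjusted p = 2.92e-09), with no overlap. Ccrl1 (now Ackr4), a scavenger receptor for the chemokines CCL19 and CCL21, stood at 111, 123, 104, 90 and 76.7 TPM in centroblasts and 28.4, 26.6, 18.4, 25.5 and 25.3 TPM in centrocytes, with a log2 fold change of -1.97 ± 0.12 (adjusted p = 1.92e-10). The other 8 were Myl4, a myosin light chain (log2 fold change -2.27), Adhfe1, an iron-dependent dehydrogenase (-2.08), Cdkn3, a phosphatase of cyclin-dependent kinases (-1.97), H1fx (now H1f10), a linker histone (-1.87), Pde2a, a cyclic nucleotide phosphodiesterase (-1.85), Mocos, a molybdenum cofactor sulfurase (-1.84), Ptgr1, a prostaglandin reductase (-1.82), and Lgr5, a receptor for R-spondins (-1.78). Centroblasts 4 and 5 gave the highest Myl4 and Cdkn3 values. Myl4 stood at 375, 331, 354, 548 and 697 TPM in centroblasts and 103, 90.7, 75.5, 94.9 and 92.3 TPM in centrocytes, and Cdkn3 at 271, 285, 291, 398 and 464 TPM in centroblasts and 93.3, 81.2, 70.5, 98.6 and 82.1 TPM in centrocytes, so without these libraries and with median-of-ratios scaling their log2 fold changes were -2.12 and -1.90.

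Genes of the light zone rose together. Of 27 genes of a light zone list that were tested, 23 rose and none fell, beside 29.7% and 12.6% of all genes tested. Their median log2 fold change was 1.37 on the deposited scale, 1.02 with median-of-ratios scaling and 1.05 with that scaling and without centroblasts 4 and 5, against 0.34, 0.02 and 0.01 for all genes. The 4 members not called on both scales were Cd44, Bcl2a1a, Traf1 and Cd52. Cd86, a member of this and 2 further lists below, was itself used in the sort.

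Cd83, a stabiliser of surface MHC class II and CD86, stood at 262, 328, 317, 249 and 189 TPM in centroblasts and 723, 717, 675, 898 and 863 TPM in centrocytes. The groups did not overlap, with a log2 fold change of 1.54 ± 0.16 (adjusted p = 1.01e-07). Cd40, the receptor for T cell help, stood at 85.7, 93.6, 88.1, 80.7 and 81.6 TPM in centroblasts and 163, 179, 165, 169.6 and 157 TPM in centrocytes. Every centrocyte was above every centroblast, and its log2 fold change was 0.95 ± 0.07 (adjusted p = 6.56e-10) and 0.59 with median-of-ratios scaling. Fcer2a, the low-affinity IgE receptor CD23, rose from 76.3 ± 24.3 to 403 ± 45.2 TPM (log2 fold change 2.43). Gpr183, the oxysterol receptor EBI2, rose from 6.46 ± 1.28 to 27 ± 4.28 TPM (log2 fold change 1.91). Cxcr5, the receptor for the follicular chemokine CXCL13, rose from 229 ± 51.2 to 433 ± 25.9 TPM (log2 fold change 0.95).

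NF-kB targets overlapped with the light zone list, which shares 13 genes with them. NF-kB dimers bind a short sequence called the kappaB site, and many of their targets are inhibitors or subunits of the pathway itself. Of 37 targets tested, 28 rose, 11 of them already counted in the light zone list, and none fell on both scales, with a median log2 fold change of 1.19 on the deposited scale, 0.84 with median-of-ratios scaling and 0.89 with that scaling and without centroblasts 4 and 5. The inhibitor genes Nfkbia, Nfkbie, Nfkbiz and Tnfaip3 and the subunit genes Nfkb1, Nfkb2, Rel and Relb were among those that rose. Fas, not called on the deposited scale (192, 185, 194, 231 and 216 TPM in centroblasts and 189, 204, 178, 225 and 225 TPM in centrocytes), was called lower with median-of-ratios scaling (log2 fold change -0.35, adjusted p = 0.0397).

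Tnf, the inflammatory cytokine, stood at 18.7, 13.7, 16, 13.2 and 10 TPM in centroblasts and 37.6, 39.7, 45.8, 43.2 and 46.6 TPM in centrocytes. The groups did not overlap, with a log2 fold change of 1.53 ± 0.12 (adjusted p = 5.06e-09). Ebi3, a subunit of the cytokines IL-27 and IL-35, stood at 5.40, 4.96, 6.40, 5.35 and 4.14 TPM in centroblasts and 17.6, 21.2, 29, 20.8 and 19.2 TPM in centrocytes, and rose by 1.84 ± 0.14 (adjusted p = 3.27e-09). Ccl22, a chemokine that draws CCR4-bearing T cells, was at or near 0 in centroblasts, at 0.749, 0.128, 0, 0.203 and 0 TPM. In centrocytes it stood at 4.15, 6.35, 5.29, 4.58 and 10.2 TPM (limma log2 fold change 2.52, adjusted p = 7.55e-09). Only genes at 1 TPM or more in at least 5 libraries were tested. Ccl22 was thus tested only because of libraries other than these centroblasts, which limits what its p-value means.

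The promoters of 4 NF-kB targets that rose are shown because they hold a kappaB match near the start site. They are the 4 with the smallest adjusted p among called members whose last 200 bases before the first listed RefSeq start (GRCm38.p6) hold a match, so they were chosen after the matches were seen. Capitals mark the kappaB match, searched on both strands. Positions are chr17:55952423-55952622 (plus strand) for Ebi3, chr2:61592897-61593096 (plus strand) for Tank, an adaptor of TRAF proteins, chr19:46304537-46304736 (plus strand) for Nfkb2, the p100 subunit, and chr12:55492648-55492847 (minus strand) for Nfkbia, the inhibitor IkB alpha. All are printed 5′ to 3′ in the direction of transcription.
Ebi3: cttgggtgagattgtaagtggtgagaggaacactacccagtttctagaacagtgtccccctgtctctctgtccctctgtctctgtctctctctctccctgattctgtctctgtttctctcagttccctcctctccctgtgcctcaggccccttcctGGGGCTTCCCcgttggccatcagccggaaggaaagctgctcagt
Tank: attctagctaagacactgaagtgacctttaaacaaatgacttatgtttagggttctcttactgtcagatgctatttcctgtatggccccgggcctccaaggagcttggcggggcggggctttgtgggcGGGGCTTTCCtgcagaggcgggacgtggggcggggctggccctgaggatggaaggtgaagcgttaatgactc
Nfkb2: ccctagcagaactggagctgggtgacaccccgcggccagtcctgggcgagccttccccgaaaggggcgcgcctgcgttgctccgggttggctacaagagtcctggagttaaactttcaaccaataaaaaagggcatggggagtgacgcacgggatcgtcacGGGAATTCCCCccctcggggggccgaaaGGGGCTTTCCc
Nfkbia: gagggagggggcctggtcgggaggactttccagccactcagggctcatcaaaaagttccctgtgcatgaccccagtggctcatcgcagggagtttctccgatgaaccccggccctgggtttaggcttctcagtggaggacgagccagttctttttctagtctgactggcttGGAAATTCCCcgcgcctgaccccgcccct
In Nfkb2 overlapping matches share capitals. A kappaB match lay in the 250 bases before the start of 3.75% of all 27025 promoters of full length in the table. Only 28 of the 37 targets tested matched the promoter table, too few for a share over the list to be given. A match is a description of the letters and not a measured binding site. Nfkb2 rose by a log2 fold change of 1.34, Tank by 0.89 and Nfkbia by 1.57.

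T cell help genes and positioning receptors mostly rose; 6 of the former and 3 of the latter are also on the light zone list. Of 26 genes of T cell help and costimulation tested, 21 rose and 1, the adhesion molecule gene Icam2, fell (median log2 fold change 1.04, 0.71 and 0.75, in the order deposited scale, median-of-ratios scaling, and that scaling without centroblasts 4 and 5, which is kept below). Slamf1, a self-binding receptor of the SLAM family, rose from 51.5 ± 9.18 to 136 ± 15.9 TPM, and Il2rg, the common gamma chain of cytokine receptors, from 153 ± 33 to 416 ± 53 TPM. Of 25 chemokine and positioning receptors tested, 22 rose and 2 fell (medians 1.71, 1.47 and 1.48). The 2 were Cxcr4, set by the sort, and S1pr2, which holds B cells in the follicle and stood at 453, 459, 377, 311 and 260.4 TPM in centroblasts and 251, 284, 274, 321 and 274 TPM in centrocytes. The centroblasts overlapped the centrocytes, and the log2 fold change of S1pr2 was -0.38 ± 0.13 (adjusted p = 0.0179) on the deposited scale, -0.73 (adjusted p = 1.34e-05) with median-of-ratios scaling. On the deposited scale the S1pr2 call was lost without centroblast 1 or centroblast 2, at adjusted p = 0.0529 and 0.0592. S1pr3, a sphingosine receptor of marginal zone B cells, rose from 11.5 ± 3.01 to 49.7 ± 3.90 TPM. Ccr1, a receptor for inflammatory chemokines, rose from 0.239, 0.246, 0.161, 0 and 0.0658 TPM in centroblasts to 7.03, 8.72, 6.39, 2.93 and 3.50 TPM in centrocytes. Like Ccl22, Ccr1 was under 1 TPM in every mutant centroblast and was tested only because of other libraries.

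Activation genes were higher in mutant centrocytes. Of 30 immediate early and stress genes tested, 21 rose and 2, Atf3 and Gadd45b, fell (medians 0.86, 0.74 and 0.70). Myc, the growth regulator that marks selected light zone cells, stood at 35.6, 32.1, 27.6, 16.3 and 15.5 TPM in centroblasts and 78.8, 104, 110.2, 94.4 and 84.5 TPM in centrocytes. No libraries overlapped, and its log2 fold change was 1.92 ± 0.18 (adjusted p = 4.90e-08). Egr1, an early transcription factor downstream of the B cell receptor, rose from 29.1 ± 9.10 to 82.4 ± 11.5 TPM, Egr2 from 3.92 ± 2.35 to 20.8 ± 3.83 TPM, and Nr4a1, an orphan nuclear receptor used as a reporter of receptor signals, from 6.38 ± 2.31 to 24.7 ± 2.28 TPM. Of 48 MYC and ribosome biogenesis genes, 29 rose and 1, the nucleolar gene Bysl, fell (medians 0.74, 0.39 and 0.42). Gnl3, which encodes nucleostemin, rose from 56.2 ± 10.2 to 153 ± 23.5 TPM, Srm, the spermidine synthase, from 60.2 ± 6.95 to 126 ± 20.3 TPM, and Mybbp1a, a nucleolar protein, from 145 ± 15.6 to 279 ± 31.7 TPM. 40 of the 48 matched the promoter table, and the E-box letters CACGTG, the site of MYC dimers, lay in the 250 bases before the start of 1 of them (2.5%), against 6.05% of all promoters in the table.

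The Toll-like receptor and MYD88 pathway, in which the altered protein works, rose in part. Of 38 members tested, 22 rose (57.9%) and 1, the ubiquitin-conjugating enzyme gene Ube2n, fell (2.63%), beside 29.7% and 12.6% of all genes tested. On the median-of-ratios scale 5 were lower. The medians were 0.68, 0.34 and 0.27. Myd88 itself stood at 82.8, 93, 77.9, 70.4 and 61.8 TPM in centroblasts and 82.8, 89, 94.2, 89.3 and 88.6 TPM in centrocytes. Its groups overlapped, and its log2 fold change was 0.21 ± 0.10 (adjusted p = 0.0665) on the deposited scale and -0.14 (adjusted p = 0.186) with median-of-ratios scaling. At the receptors, Tlr1, Tlr2, Tlr3, Tlr4, Tlr7, Tlr9 and Tlr12 rose, together with Unc93b1, the chaperone of endosomal receptors. Tlr3, a sensor of double-stranded RNA that does not use MYD88, rose from 1.20 ± 0.403 to 9.01 ± 2.52 TPM. At the kinases, Irak1, Irak2, Irak3 and Irak4 rose, and Irak3, a kinase-dead member known as a brake on the pathway, went from 0.975 ± 0.429 to 6.43 ± 1.70 TPM. Traf6, Tirap and Map3k7, which link the receptors to NF-kB, were not called on both scales.

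Of 37 B cell receptor signalling genes tested, 4 were lower with median-of-ratios scaling (medians 0.56, 0.21 and 0.20). On both scales 18 rose (48.6%) and 1, Cd79b, the receptor's Ig beta chain, fell (2.7%), beside 29.7% and 12.6% of all genes tested. Those with the smallest adjusted p were Bank1, a scaffold, from 181 ± 27.6 to 442 ± 49.3 TPM, Cr2, the complement receptor CD21, from 66.6 ± 19.7 to 262 ± 40.6 TPM, Cd22, an inhibitory receptor, from 387 ± 99.8 to 896 ± 105 TPM, and Ptprc, which encodes the CD45 phosphatase whose B220 form was in the gate, from 464 ± 129 to 1186 ± 56.5 TPM. Of 19 MHC class II presentation genes, 9 rose (47.4%) and none fell on both scales (medians 0.55, 0.19 and 0.35). With median-of-ratios scaling 2 were lower. Ifi30, the lysosomal thiol reductase of antigen processing, stood at 445, 495, 431, 469 and 485 TPM in centroblasts and 1122, 1212, 1131, 1125 and 1235 TPM in centrocytes. The groups were far apart, with a log2 fold change of 1.32 ± 0.07 (adjusted p = 2.48e-11). The chaperone genes H2-DMb2 and H2-Oa rose from 701 ± 95 to 1174 ± 37.5 TPM and from 346 ± 27 to 573 ± 26.2 TPM, and Cd1d1, which presents lipids, from 1.19 ± 0.465 to 12.1 ± 3.90 TPM. The class II chain genes H2-Aa, H2-Ab1 and H2-Eb1 and the invariant chain gene Cd74 were not called on both scales. Of 21 class I genes, 10 rose (47.6%) and 2, the immunoproteasome genes Psmb8 and Psmb10, fell (9.52%), with medians of 0.56, 0.21 and 0.17. Lower with median-of-ratios scaling were 4. Tapbp (tapasin) rose from 97.9 ± 19.5 to 205 ± 24.7 TPM, and Erap1, which trims peptides, from 53.3 ± 15.9 to 113 ± 12.2 TPM. H2 genes are similar in sequence, so how their reads were shared between them is uncertain. Of 35 type I interferon genes, 19 rose (54.3%) and none fell on both scales (medians 0.71, 0.38 and 0.35). On the median-of-ratios scale 4 were lower. Mx1, an antiviral GTPase, rose from 0.599 ± 0.350 to 5.03 ± 1.89 TPM, and Ddx58, the RNA sensor RIG-I, from 5.79 ± 2.70 to 16.6 ± 2.86 TPM.

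Genes of memory precursors and of T-bet+ CD11c+ B cells, a population tied to TLR7 signals, were higher in mutant centrocytes. The memory precursor and T-bet lists share 7 genes, and the memory precursor list shares 6 with the positioning receptors. Of 28 memory precursor genes tested, 21 rose and 2, Nt5e and Id3, fell (medians 1.86, 1.52 and 1.46). Hhex stood at 8.04, 3.28, 8.08, 3.64 and 4.63 TPM in centroblasts and 62.5, 35.4, 61, 47.5 and 52.9 TPM in centrocytes. Bcl2, the survival factor that germinal centre B cells normally keep low, stood at 1.31, 0.661, 2.0, 0.191 and 0.481 TPM in centroblasts and 13.9, 13.4, 14.9, 9.45 and 9.62 TPM in centrocytes. In both genes all centrocytes were above all centroblasts, and the log2 fold changes were 3.06 ± 0.23 and 2.84 ± 0.24 (adjusted p = 2.58e-09 and 6.55e-09). Of 19 T-bet and CD11c genes tested, 17 rose and 1, Lgals1, which encodes galectin 1, fell (medians 1.66, 1.32 and 1.38). Both defining genes, Tbx21 (T-bet) and Itgax (CD11c), were among those that rose, and Zeb2, a transcription factor of this population, stood at 4.31, 4.13, 3.31, 2.91 and 2.39 TPM in centroblasts and 19.3, 22.3, 22.8, 15.9 and 15.3 TPM in centrocytes.

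Of 23 plasma cell genes tested, 9 rose (39.1%) and 4 fell (17.4%), near the 29.7% and 12.6% of all genes tested (medians 0.48, 0.16 and 0.18). Irf4, needed for plasma cell formation, stood at 25.5, 24, 34.1, 11.8 and 9.15 TPM in centroblasts and 73.4, 89.8, 96.6, 60 and 65.2 TPM in centrocytes. Its groups did not overlap, with a log2 fold change of 1.96 ± 0.25 (adjusted p = 1.72e-06). Prdm1, which encodes BLIMP1, the repressor that closes the B cell programme, stood at 4.96, 4.02, 3.58, 0.967 and 1.01 TPM in centroblasts and 17, 22.4, 15.7, 4.92 and 5.83 TPM in centrocytes, with centrocyte 4 just below the highest centroblast (log2 fold change 1.81 ± 0.36, adjusted p = 2.75e-04). The secretory chaperone genes Hsp90b1 and Hspa5 rose from 282 ± 79.5 to 722 ± 150.5 TPM and from 389 ± 104 to 825 ± 72.3 TPM. The 4 that fell were Igj (Jchain), 2010001M09Rik (Mzb1), Sec61b and Eaf2, a partner of transcription elongation factors that went from 257 ± 10.3 to 131 ± 17.6 TPM. Of 31 unfolded protein response and secretion genes, 12 rose (38.7%) and 2, Sec61b and Spcs1, fell (6.45%), while 8 were lower with median-of-ratios scaling (medians 0.37, 0.02 and 0.01); Pdia4, a disulfide isomerase, rose from 52.8 ± 20.7 to 180.5 ± 51 TPM.

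Dark zone genes fell. Of 17 tested, 11 fell and 1, Ccdc88a, an actin-binding protein, rose, with medians of -0.96, -1.32 and -1.31. Cxcr4, one of those that fell, was set by the sort. The 5 not called on both scales were Foxo1, Foxp1, Mybl1, Basp1 and Trim59. 8430410A17Rik (now Hmces), which shields abasic sites in DNA, stood at 1481, 1684, 1583, 1827 and 1647 TPM in centroblasts and 369, 377, 315, 404 and 364 TPM in centrocytes. It had a log2 fold change of -2.17 ± 0.08 (adjusted p = 1.52e-14), and as a Rik symbol it was left out of the ranking of falls above. Neil1, a base excision glycosylase, stood at 716, 718, 622, 674 and 614 TPM in centroblasts and 218, 222, 209.7, 251 and 159 TPM in centrocytes, with a log2 fold change of -1.67 ± 0.11 (adjusted p = 2.91e-10). Neither gene's groups overlapped.

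3 transcription factors of the germinal centre were called on neither scale. Bcl6, the regulator that defines these cells, stood at 337, 259, 271, 184 and 154 TPM in centroblasts and 237, 260.3, 310.2, 308 and 274 TPM in centrocytes, Foxo1, which is needed for the dark zone, at 124, 87.2, 89, 62.1 and 41.6 TPM in centroblasts and 102, 95, 112, 102 and 89.2 TPM in centrocytes, and Bach2, a repressor that delays plasma cell fate, at 155, 95.2, 95.5, 59.3 and 48.4 TPM in centroblasts and 86.5, 82.8, 103, 107 and 90 TPM in centrocytes. The groups of all 3 overlapped, and centroblasts 4 and 5 gave the lowest values of each. Their log2 fold changes were 0.25 ± 0.15, 0.39 ± 0.18 and 0.16 ± 0.21 on the deposited scale (adjusted p = 0.163, 0.0702 and 0.514). With median-of-ratios scaling and without these libraries, that of Bach2 was -0.43 (adjusted p = 0.012) and so was of opposite sign and called, while those of Bcl6 and Foxo1 were -0.23 and -0.16 (adjusted p = 0.0832 and 0.226). Of 27 germinal centre identity genes, 4 rose (Mef2c, Lmo2, Pou2f2 and Ebf1) and 7 fell, while 12 were lower with median-of-ratios scaling. The medians were 0.16, -0.19 and -0.25. The share that rose (14.8%) was below the 29.7% of all genes tested, and the share that fell (25.9%) was above the 12.6%. Lmo2, a partner of transcription factors used as a germinal centre marker, rose from 87.2 ± 25.2 to 211 ± 29.1 TPM, and Mef2c, a factor of B cell proliferation, from 162 ± 36.5 to 296 ± 6.41 TPM. Of 30 somatic hypermutation and class switching genes, 9 rose (30%, beside 29.7% of all genes tested) and 7 fell (23.3%, beside 12.6%), and 12 were lower with median-of-ratios scaling (medians 0.23, -0.12 and -0.21). Apex1, an abasic site endonuclease, rose from 148 ± 13 to 222 ± 11.9 TPM.

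Genes of mitosis fell in mutant centrocytes. Of 44 G2 and M phase genes tested, 32 fell and none rose, with medians of -0.52, -0.87 and -0.81. Cdc20, an activator of the anaphase-promoting complex, stood at 412, 412, 361, 398 and 374 TPM in centroblasts and 139, 158, 139.7, 152 and 129 TPM in centrocytes. The groups were far apart, and the log2 fold change was -1.44 ± 0.10 (adjusted p = 4.74e-10). Cdc25b, the phosphatase that starts mitosis, stood at 397, 363, 299, 366 and 303 TPM in centroblasts and 132, 136, 130.2, 136 and 118 TPM in centrocytes. Its log2 fold change was -1.39 ± 0.09 (adjusted p = 2.71e-10), while Cenpa, the centromeric histone, went from 290.2 ± 18.3 to 123 ± 6.80 TPM and Cdca3, a trigger of mitotic entry, from 491 ± 49.5 to 225 ± 14.8 TPM. Mki67 and Top2a were among the 12 not called on both scales. Summed over the 44 genes, TPM were 7673 ± 1167 TPM in centroblasts and 5047 ± 446 TPM in centrocytes, with a centroblast minimum of 5861 and a centrocyte maximum of 5554.

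Promoters of mitotic genes are known for the cell cycle homology region (CHR), bound by the DREAM and MuvB complexes, and for CCAAT boxes, bound by NF-Y. The 3 promoters below are those of the called members with the smallest adjusted p whose last 200 bases before the first listed RefSeq start (GRCm38.p6) hold both, chosen after the matches were seen. Capitals mark TTTGAA (the CHR letters) and CCAAT, or their reverse complements, searched on both strands. Positions are chr4:118437344-118437543 (minus strand) for Cdc20, chr2:164769729-164769928 (plus strand) for Ube2c, the ubiquitin-conjugating enzyme of the anaphase-promoting complex, and chr9:70421555-70421754 (minus strand) for Ccnb2, a mitotic cyclin, each printed 5′ to 3′ in the direction of transcription.
Cdc20: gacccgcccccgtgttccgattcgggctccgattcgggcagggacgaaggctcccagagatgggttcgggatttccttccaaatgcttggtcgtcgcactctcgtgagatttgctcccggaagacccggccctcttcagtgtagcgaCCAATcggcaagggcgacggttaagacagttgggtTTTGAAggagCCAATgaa
Ube2c: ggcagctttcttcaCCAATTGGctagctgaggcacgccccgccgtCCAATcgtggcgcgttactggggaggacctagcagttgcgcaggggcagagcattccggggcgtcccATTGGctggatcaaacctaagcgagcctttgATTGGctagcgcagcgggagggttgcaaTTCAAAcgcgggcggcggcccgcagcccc
Ccnb2: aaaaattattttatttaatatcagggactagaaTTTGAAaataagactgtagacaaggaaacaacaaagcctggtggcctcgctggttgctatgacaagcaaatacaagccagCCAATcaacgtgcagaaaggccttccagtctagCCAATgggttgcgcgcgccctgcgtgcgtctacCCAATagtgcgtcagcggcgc
In Ube2c the first capitals are overlapping CCAAT matches on opposite strands. Of the 44 tested members, 36 matched the table. CCAAT lay in the 250 bases before the start of 30 of the 36 (83.3%) and TTTGAA in 12 (33.3%). Over all 27025 promoters the shares were 34.5% and 16.3%, and over the 9013 tested genes matched 37.5% and 10.8%. The kappaB and E-box letters each lay in 3 of the 36 (8.33%). TTTGAA was not particular to the mitotic list. It lay in 7 of the 18 matched members of the light zone list (38.9%), which has 27 tested. CCAAT lay in 21 of the 33 matched S phase members (63.6%), of 43 tested. In the MYC list above, CCAAT lay in 9 of 40 (22.5%), and TTTGAA and the kappaB letters in 1 each (2.5%). In the dark zone list, with 14 of 17 tested members matched, CCAAT lay in 4 (28.6%), TTTGAA and the kappaB letters in 2 each (14.3%), and the E-box letters in none. The shares are descriptions, and the lists were known when the motifs were chosen. Ube2c and Ccnb2 fell, with log2 fold changes of -1.17 and -1.24.

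The count of replication genes that fell moved with the scale. Of 43 S phase genes tested, 17 fell on both scales (39.5%, beside 12.6% of all genes tested) and none rose. With median-of-ratios scaling alone 38 fell, and 36 did so without centroblasts 4 and 5. The medians were -0.18, -0.53 and -0.46. The replication clamp loader genes Rfc3 and Rfc4 went from 318 ± 30.1 to 199 ± 10.2 TPM and from 312 ± 27.2 to 189 ± 16.7 TPM, and the helicase subunit gene Mcm5 from 680.0 ± 68.7 to 459 ± 22.2 TPM. Of 21 G1 regulators, 5 rose (Ccnd2, Cdk6, Cdkn1b, Rb1 and E2f3) and 2 fell (Ccnd3 and Cdkn2d), shares of 23.8% and 9.52% that are near those of all genes tested, and 8 were lower with median-of-ratios scaling, with medians of 0.19, -0.16 and -0.28. Cdkn1b, the inhibitor p27, stood at 15.6, 13.1, 17.9, 14.5 and 13.1 TPM in centroblasts and 37.8, 35.4, 40.5, 32.2 and 30.7 TPM in centrocytes, and rose by 1.20 ± 0.13 (adjusted p = 3.75e-07). Rb1, the retinoblastoma protein, rose from 15.1 ± 3.42 to 32.2 ± 6.41 TPM, and the inhibitor gene Cdkn2d fell from 127 ± 19.3 to 69.4 ± 9.38 TPM.

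Respiratory chain genes fell. Of 51 oxidative phosphorylation genes tested, 47 fell and none rose, with medians of -0.46, -0.82 and -0.54. Sdhb, the iron-sulphur subunit of succinate dehydrogenase, stood at 631, 763, 699.7, 944 and 1039 TPM in centroblasts and 390.5, 386, 342, 357 and 405 TPM in centrocytes. Centroblasts 4 and 5 were the highest, the groups did not overlap, and the log2 fold change was -1.09 ± 0.11 (adjusted p = 8.62e-08). The cytochrome c oxidase genes Cox6a1, Cox7a2 and Cox6b1 went from 997 ± 159 to 602 ± 48 TPM, from 685 ± 144 to 370.2 ± 32.2 TPM and from 1725 ± 377 to 977 ± 81.1 TPM. The members have short transcripts, with a median of 595.5 bases, and short transcripts took a larger share of the shifted libraries; their part in the result was not tested. Of 20 glycolysis genes, 7 rose (35%) and 2, Tpi1 and Pgk1, fell (10%), shares near those of all genes tested, and 7 were lower with median-of-ratios scaling (medians 0.25, -0.10 and -0.04). Aldoc, an aldolase, stood at 10.9, 9.43, 10.9, 11.7 and 11.4 TPM in centroblasts and 33.5, 27.9, 42.4, 43.5 and 53.7 TPM in centrocytes, and rose by 1.76 ± 0.14 (adjusted p = 2.92e-09). The glucose transporter gene Slc2a3 rose from 7.40 ± 2.17 to 16 ± 1.43 TPM, Hk2, a hexokinase, from 4.67 ± 2.19 to 13.6 ± 3.05 TPM, and Pfkfb4, a regulator of glycolytic flux, from 2.19 ± 0.818 to 6.54 ± 1.04 TPM. Of 25 cholesterol synthesis genes, 7 rose (28%, beside 29.7% of all genes tested) and none fell on both scales; with median-of-ratios scaling alone 7 were higher and 6 lower (medians 0.47, 0.13 and 0.20).

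Of 78 cytosolic ribosomal protein genes tested, 51 fell and 2, Rpl10a and Rpl12, rose, with medians of -0.39, -0.75 and -0.38. The median with median-of-ratios scaling thus moved from -0.75 to -0.38 without the shifted libraries. Rps20, a small subunit protein, stood at 2609, 2708, 3119, 3545 and 4685 TPM in centroblasts and 2369, 1899, 1762, 2070 and 2324 TPM in centrocytes. Centroblasts 4 and 5 gave its highest values. In controls 1 of the 78 rose and none fell on both scales, beside 17.5% and 9.26% of all genes tested. The control median was -0.25 with median-of-ratios scaling. Unequal counts are no test of a difference. The test of the difference between genotypes passed 0 of all 11386 genes on both scales, so it says nothing particular to these 78. The median difference, mutants minus controls, was -0.50 with median-of-ratios scaling and -0.12 with that scaling and without centroblasts 4 and 5. Ribosomal protein genes have many processed copies, so their reads may be shared with them. Of 28 apoptosis genes, 10 rose (35.7%) and 3, Bak1, Bad and Fadd, fell (10.7%), shares near those of all genes tested (medians 0.57, 0.25 and 0.11). Birc3, an inhibitor of apoptosis, rose from 75.3 ± 29.7 to 203 ± 26.5 TPM. Bcl2a1b and Bcl2a1d, survival genes that are near-identical copies and so uncertain as single genes, rose from 133 ± 36 to 341 ± 61.3 TPM and from 50.6 ± 16.9 to 155 ± 20.8 TPM.

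**Figure D3:**
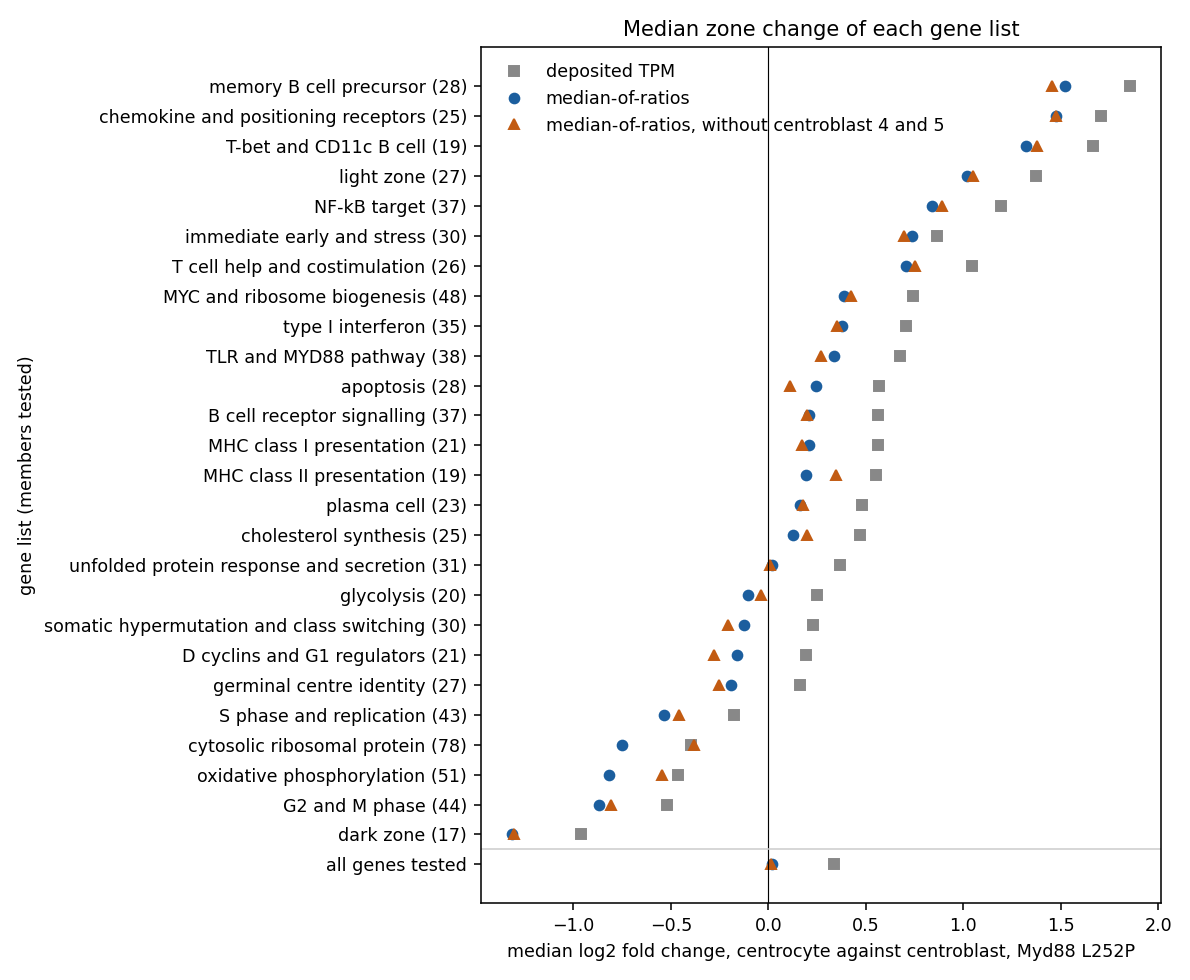
Median log2 fold change, centrocyte against centroblast in Myd88 L252P mice, for 26 gene lists (members tested in brackets) and for all genes tested, on the deposited scale (squares), with median-of-ratios scaling (circles) and with that scaling without centroblasts 4 and 5 (triangles). Among these 26 lists the memory precursor list is highest in the first 2 settings (1.86 and 1.52). In the last it is second to the chemokine and positioning receptors (1.46 against 1.48). The dark zone list is lowest (-0.96, -1.32 and -1.31), and the ribosomal protein list moves most between the last 2 settings (-0.75 and -0.38). Marker lists of other cells are not drawn. Of those, the naive follicular B cell list was above the memory precursor list in all 3 settings (1.99, 1.64 and 1.51).

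The zone change also followed transcript length, taken as the median length of a gene's GENCODE M21 transcripts. The genes were split by length into 5 bins of like size. In the shortest bin, at 732.5 bases or less, the median log2 fold change was -0.14 with median-of-ratios scaling, and in the longest bin, from 2559 bases, it was 0.28. Without centroblasts 4 and 5 the corresponding medians were -0.08 and 0.20. In controls, on the deposited scale, they were 0.06 and 0.27, and so were also higher in the longest bin.

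**Figure D4:**
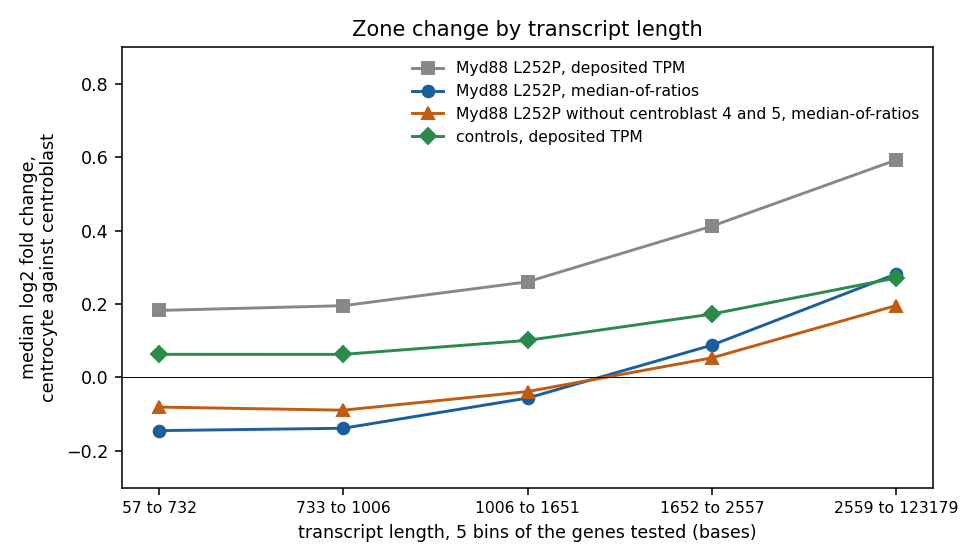
Median log2 fold change, centrocyte against centroblast, in 5 bins of the genes tested ordered by transcript length (bases), for Myd88 L252P mice under 3 settings and for controls on the deposited scale. Every line is higher in the longest bin than in the shortest (-0.14 to 0.28 in mutants with median-of-ratios scaling).

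Markers of other cells differed between the zones as well. Of 16 macrophage, monocyte and neutrophil markers tested, 12 rose and none fell on both scales (medians 1.44, 1.13 and 0.94). Without Apoe, which alone makes up most of the sum, the 25 other markers found summed to between 77.7 and 167 TPM in centroblasts and between 187 and 439 TPM in centrocytes, and none of the 26 was at 0 in all mutant libraries. Emr1 (now Adgre1), which encodes F4/80, stood at 3.20, 3.58, 4.27, 1.93 and 0.402 TPM in centroblasts and 14.9, 12.8, 16.3, 7.22 and 10.7 TPM in centrocytes, and Cd68, a lysosomal glycoprotein of macrophages, at 16.8, 17.5, 21.6, 8.04 and 13.7 TPM in centroblasts and 43.7, 50.4, 50.8, 24.9 and 34.8 TPM in centrocytes. Slc40a1, the iron exporter ferroportin, rose from 2.74 ± 1.25 to 14.2 ± 6.87 TPM, and Mpeg1, a pore-forming protein, from 31.3 ± 16.2 to 109.7 ± 31.9 TPM. Of 16 naive follicular B cell markers, 14 rose and none fell (medians 1.99, 1.64 and 1.51), and the 16 summed to 1238 to 1822 TPM in centroblasts and 3377 to 4000 TPM in centrocytes. Bcl2, Fcer2a, Klf2 and S1pr1, which are counted among the rises above, are on that list. Zfp318, a factor needed for IgD, rose from 2.13 ± 1.03 to 14.1 ± 1.72 TPM. Of 18 marginal zone and B-1 markers, 12 rose and 2 fell; the 2 were 1190002H23Rik (now Rgcc), a cell cycle regulator, from 119 ± 34.5 to 18.6 ± 5.89 TPM, and 2010001M09Rik (Mzb1). Without Mzb1 the other 17 summed to 315 to 553 TPM in centroblasts and 874 to 1307 TPM in centrocytes. The part of any of these cells in the zone changes was not tested.

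Fewer markers of other lineages were called. Of 12 T cell markers tested, 4 rose (Lat, Tcf7, Thy1 and Cd5) and 1, Cd2, which B cells also express, fell from 309 ± 28.2 to 234 ± 20.4 TPM. These shares, 33.3% and 8.33%, are near the 29.7% and 12.6% of all genes tested. The 21 T cell markers other than Cd2 summed to between 181 and 274 TPM in centroblasts and between 244 and 299 TPM in centrocytes. Among 2 NK cell markers tested Prf1 (perforin) rose, and all 10 found summed to between 1.33 and 3.48 TPM in centroblasts and between 3.53 and 9.65 TPM in centrocytes. Among 3 dendritic cell markers Cst3 (cystatin C) fell, and the 10 others found summed to between 60.1 and 78.9 TPM in centroblasts and between 75 and 98.7 TPM in centrocytes. No erythroid marker (of 6 tested) and no follicular dendritic or stromal marker (of 2) was called on both scales; the erythroid sums ran from 331 to 827 TPM and from 245 to 603 TPM, nearly all of it Beta-s (Hbb-bs), while Hba-a1, Hba-a2, Hbb-b1 and Hbb-b2 were listed at 0 in all 10 mutant libraries. The stromal sums ran from 6.99 to 8.88 TPM and from 7.24 to 13.2 TPM.

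The same zone comparison was made in control mice, which lack the allele. In controls 1991 genes (17.5%) rose and 1054 (9.26%) fell on both scales. Of these, 1777 and 878 were also called in the same direction in mutants, and none in the opposite direction. A larger number of calls in mutants is not a test of a difference, so the difference between the zone effects of the genotypes was tested directly. On both scales 0 genes (0%) had a larger and 0 (0%) a smaller zone effect in mutants at an adjusted p under 0.05 in limma. At an unadjusted p under 0.05 there were 1322 of the 11386 genes on the deposited scale and 1215 with median-of-ratios scaling. Without centroblasts 4 and 5, and so with fewer libraries, there were 604 and 626. Across genes the zone effects of mutants and controls, both with median-of-ratios scaling, had a Spearman correlation of 0.878 over the 11386 genes, given as a description since genes are not independent replicates. Across genes called in controls, the slope of the mutant on the control effect was 1.18, and it was 1.05 without centroblasts 4 and 5.

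**Figure D5:**
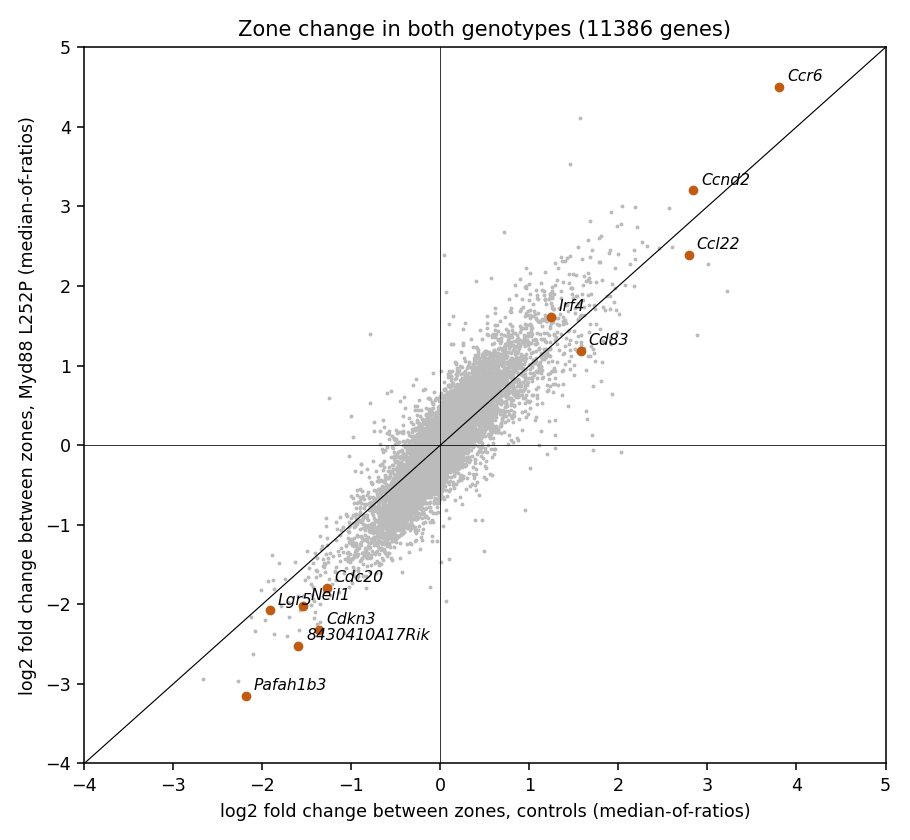
Log2 fold change, centrocyte against centroblast, in controls (horizontal) and in Myd88 L252P mice (vertical), both with median-of-ratios scaling; each grey point is 1 of 11386 genes, orange points are named genes, and the diagonal marks equal change. Points lie along the diagonal (Spearman correlation 0.878), with Ccr6 highest and Pafah1b3 lowest among the named genes.

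Pafah1b3 and 8430410A17Rik (Hmces) passed the test of the difference on the deposited scale. In controls Pafah1b3 went from 758 ± 66.7 to 183 ± 19.1 TPM and 8430410A17Rik from 1467 ± 141 to 534 ± 30.5 TPM, with log2 fold changes of -2.05 and -1.45, so their fall was smaller in controls than in mutants. The differences were -0.75 ± 0.12 and -0.71 ± 0.11 (adjusted p = 0.0241 for each). With median-of-ratios scaling they were -0.97 ± 0.20 and -0.93 ± 0.19 (adjusted p = 0.178 for each) and were no longer called. On the deposited scale the number of genes called ran from 0 to 7 when each of the 20 libraries was left out in turn. Cd83, Ccl22, Egr2 and Myc, whose rises are among those described above, had log2 fold changes in controls of 1.58, 2.79, 1.96 and 1.54 with median-of-ratios scaling, beside 1.18, 2.39, 1.98 and 1.57 in mutants, and none of the 4 passed the test of the difference.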

How the data were processed

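Bulk RNA from sorted germinal centre B cells was sequenced in 20 libraries, 5 in each of 4 groups of zone and genotype. Libraries were made with a stranded mRNA kit, per the labels' protocols, and aligned with STAR to mm10, per the submitters' processing notes. The version of STAR is not given in the sources used here, nor are the annotation, the counting or its use of strand. The authors deposited 1 table of TPM per library, a normalized unit that keeps no read depth, so depth and counting error are unknown and precision rests on the number of libraries.

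From the deposited TPM, log2(TPM + 1) was computed for 23382 symbols. Genes at 1 TPM or more in at least 5 libraries were tested (11386). A gene under 1 TPM in all libraries of a group could pass only through the other groups, as Ccl22 and Ccr1 did. limma 3.58.1 in R 4.3.3 fitted 4 group means over all 20 libraries, with trended and robust moderation, two-sided tests and Benjamini-Hochberg adjustment over all genes tested. A call needed an adjusted p under 0.05. The 20 libraries were also rescaled by median of ratios over the 11359 genes above 0 in each. The fit was tested on simulated data.

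The genes, 34 lists (991 of 996 members found, under current or older RefSeq symbols) and motifs were chosen with earlier results of these data known. Named genes are the 12 largest rises and falls called on both scales without overlap and above a mean of 5 TPM in 1 group, up to 4 members of each list by adjusted p, and 20 genes of prior interest. The ranking of rises and falls left out immunoglobulin and T cell receptor segments and numbered gene models (such as Gm and Rik symbols). It also left out microRNA, small nucleolar RNA, mitochondrially encoded and Y-linked genes, and Xist. Some genes that the rule takes are not reported here. Other members were named where a count was 5 or fewer or to show which members moved, after their values were seen. Of 4 motifs searched in 7 lists, shares are given for the 3 lists with at least 80% of members matched to the promoter table. Shares of single motifs are also given for the light zone and S phase lists, which had fewer members matched. Alternatives were other scalings, pseudocounts, filters, weights, a replicate block, fewer libraries and leaving out each library. A fit of the 10 mutant libraries alone with median-of-ratios scaling was added after seeing the data.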

Additional observations from a re-analysis of the deposited data

Results flagged for a closer look

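Within the 5 centroblast or 5 centrocyte mutant libraries, 5 of 258 groups of values (1.94%) held a library whose gap to its nearest neighbour exceeded 0.71 of the range. For genes the gap and the range were taken on log2(TPM + 1), while the values below are TPM. Chance alone gives about 1 in 20. Among centroblasts, library 5 was low for Parp9, an ADP-ribosyltransferase family member (30.8 TPM, the others 49.4 to 57.9). Among centrocytes, library 3 was low for Ccrl1 (18.4 TPM, the others 25.3 to 28.4). Centrocyte 1 was high for H2-Oa (619 TPM, the others 556 to 567) and low for Mcm5 (420.0 TPM, the others 461 to 475). Centrocyte 2 was low for Cxcr5 (387 TPM, the others 439 to 450.2).

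The zone effect differed between genotypes for Pafah1b3 (difference of log2 fold changes -0.75, mutants minus controls) and 8430410A17Rik (-0.71) on the deposited scale; neither passed with median-of-ratios scaling.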

How the results depend on the processing

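The deposited scale gave 6997 genes that differed between the zones in mutants (limma, adjusted p under 0.05), 5561 higher and 1436 lower in centrocytes. Other settings gave 5601 to 7435. The split moved: it was 3376 higher and 3281 lower with median-of-ratios scaling, 4079 and 1694 without centroblast mutants 4 and 5, and 2813 and 2788 with both changes. In controls, 3498 genes differed; 5418 did without those 2 libraries, 5357 when median-of-ratios scaling was added, and 6496 with library weights.

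The count of genes whose zone effect differed between the genotypes was 2. It was 0 with median-of-ratios scaling (1215 genes at an unadjusted p under 0.05) and 0 without trended and robust moderation. It was 4 with a pseudocount of 5, 4 without centroblast mutants 4 and 5, 1 when median-of-ratios scaling was added to that (626 genes at an unadjusted p under 0.05), and 9 with library weights. With each library left out in turn it ranged from 0 to 7. It was 0 without control centroblasts 1, 2 or 5, mutant centroblasts 2 or 4, control centrocytes 1, or mutant centrocytes 1, 2 or 5. It was 1 without control centrocytes 3 and 7 without mutant centroblasts 1. With the replicate block it was 14, beside 7322 genes in mutants and 4203 in controls. Same-numbered libraries of the 2 zones had correlated deviations of -2.93e-05, 0.233, 0.173, 0.199 and 0.269 in mutants and 0.259, 0.259, 0.153, -0.0168 and 0.157 in controls. In each genotype 4 of 5 pairs were over 0.1, and 2 of 5 mutant and 4 of 5 control centroblasts correlated best with the centrocytes of their own number. Since the labels name no shared animal and not every pair passed, the numbers were not taken to pair the libraries.

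Of 129 genes taken by the naming rule, 5 changed sign in a setting, and 2 of them were called on one side of the change: Fas, 0.00 on the deposited scale, was at -0.35 with median-of-ratios scaling, and Bach2, at 0.16, was at -0.43 with that scaling and without centroblast mutants 4 and 5. Myd88, Bcl6 and Foxo1 were negative in 1 or more settings with median-of-ratios scaling or without those libraries, in none of which they were called. The fall of S1pr2 missed the threshold in the 10 mutant libraries alone (limma, adjusted p = 0.0509) and without mutant centroblasts 1 (0.0529) or 2 (0.0592). In the 10 libraries with median-of-ratios scaling, added after seeing the data, Tcf7, Rpl12, H2-Oa and Apex1 missed it. Myd88, Bcl6 and Foxo1 were called higher in 1 or more other settings. That scaling moved the medians of 15 of 34 lists by more than the spread between libraries. The causes were not tested. TPM keep no read depth, so differences of genes near 1 TPM have no counting error here.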
